A study of Mus musculus with 9 samples.

Results

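The antiviral effectors described here are 9 interferon-induced genes: Ifit1, Ifit2, Ifit3, Ifit3b, Oas1a, Oasl2, Rsad2, Ifitm3 and Bst2. They were taken by name, and all 9 were found among the 16299 genes measured by RNA sequencing of melanocytes, the pigment cells of skin, purified by FACS from mouse epidermis. The names were selected on the measured values of these libraries, with earlier results known, above all higher levels in knockout tail than in control tail libraries, so that difference is given below as a description with no test. Knockout back libraries came from the back skin of mice with genotype Spry1flox/flox k14-Cre-ERT2, knockout tail libraries from the tail skin of the same genotype, and control tail libraries from the tail skin of Spry1flox/flox mice that lack the Cre. Each group had 3 libraries, and the floxed Spry1 alleles are shared by all groups. Spry1 dampens signalling from growth factor receptors. The Cre, fused to an oestrogen receptor domain, is driven by the keratin 14 promoter, which is active in basal keratinocytes, the neighbours of epidermal melanocytes, and not in melanocytes themselves. The sources used here do not give the ages of the mice, the induction of the Cre or whether replicates were separate animals. The p-values below therefore reflect the spread among the libraries alone, and that spread may be technical. No back skin of mice without the Cre is among the groups used here, so body site and genotype cannot be told apart between knockout back and control tail.

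Interferons bind receptors at the cell surface, Jak kinases then activate Stat proteins, and a complex that holds Stat2 and Irf9 binds interferon-stimulated response elements near the starts of target genes. The products act on different steps of a viral infection: Ifit proteins bind RNA and block its translation, Oas enzymes make oligoadenylates that set off the breakdown of RNA, and Rsad2 (viperin) makes a nucleotide analogue that stops viral RNA synthesis. Ifitm3 hinders the fusion of viruses with endosomal membranes, and Bst2 (tetherin) holds budding virus particles at the cell surface. In skin, interferon signalling to melanocytes is best known from vitiligo, a disease in which melanocytes are lost.

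Levels are given as normalised counts, which are whole counts recovered from the deposited log2 values and divided by the size factor of each library. Totals ran from 47.7 to 57.1 M in knockout back, from 45.7 to 65.6 M in knockout tail and from 66.3 to 67.9 M in control tail. In knockout back, 4628 genes in the first library and 6127 in the second were at 0 counts, more than the 854 to 1739 of the remaining 7 libraries. Before deposit, a shift had been removed between a set made of the third knockout back and the third knockout tail libraries and a set of the other 7 libraries, with no allowance for group. Normalised counts still contain this shift and the deposited log2 values do not. Differences between groups are therefore given on the deposited log2 scale from a limma fit with group alone (group-only fit), and from a second limma fit that adds the library set (set-term fit), whose estimates do not depend on the removed shift. The removed shift had the smaller set higher in all 9 members, by 0.69 log2 units for Oas1a up to 2.29 for Ifit1, and in 60.7% of all genes. No control library is in the smaller set, so a gene higher in knockout than in control libraries leans to this direction through group alone. The members were picked for such a difference, so their shared direction follows in part from that choice. Spry1 itself had 2283, 0 and 746 normalised counts in knockout back, 3589.5, 1758 and 587 in knockout tail and 1510.4, 1074 and 1285 in control tail, groups that overlap; a keratinocyte Cre is not checked by Spry1 in melanocytes.

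Markers of melanocytes and of other skin cells were summed in each library. The sum of the 7 of 10 melanocyte markers with a resolved count was 875904 to 990274 in knockout back, 775897 to 922301 in knockout tail and 653710 to 662962 in control tail. The other 3, Dct, Pmel and Tyrp1, were too high to resolve into counts. Of 10 Langerhans and myeloid markers 8 were measured, none at 0 throughout a group, and their sum was 7372, 19994 and 23859 in knockout back, 1620, 746 and 11008 in knockout tail and 1136, 2449 and 863 in control tail. The sum was thus higher in each knockout back library than in each control library. Of its genes, Cd74, H2-Aa and H2-Ab1 stood apart in the same way, with knockout back means of 6201.5, 3269 and 4370. Their means in control tail were 46.8, 1.65 and 26.8. Epcam, Ptprc, Lyz2, Csf1r and Adgre1 overlapped between knockout back and control tail. The part of this sum in the results below for knockout back was not tested. The sum of 6 basal keratinocyte markers was 119701, 39208 and 189571 in knockout back, 35909, 12363 and 324383 in knockout tail and 63565, 99934 and 38508 in control tail, so the third knockout tail library held the most. The sum of 5 red blood cell markers was 6044, 14999 and 25637 in knockout back, 84023, 105763 and 2471 in knockout tail and 9216, 632 and 1029 in control tail, where Alas2 was at 0 throughout. It was thus highest in the first and the second knockout tail libraries. Of 6 T cell markers 3 were measured. Their sum was low, at 20.46 to 623.18 in knockout back, 0 to 325.9 in knockout tail and 3.31 to 12.62 in control tail. The T cell sum was thus higher in each knockout back library than in each control library. The part of T cells in the results for knockout back was not tested. Sums for differentiated keratinocytes, plasmacytoid dendritic cells, fibroblasts and endothelial cells overlapped among all 3 groups. The part of these cells in the results for knockout tail was not tested. Eif2s3y, a Y-linked gene, had 2974 to 3843 normalised counts in knockout back, 3948, 4793 and 0 in knockout tail and 0 to 121 in control tail, and the labels give no sex. Xist, an RNA of the inactive X chromosome, had 1414 to 2645 in knockout back, 4.04 to 7358 in knockout tail and 1416 to 4223 in control tail. Every knockout back library thus held RNA of both genes. The part of sex in the results was not tested.

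The RefSeq promoters of the effectors on mouse build GRCm38.p6, 250 bases before to 50 bases after an annotated start, were searched on both strands for the core of the interferon-stimulated response element, written GAAA, any 2 bases, GAAA (on the other strand TTTC, any 2 bases, TTTC). All 9 genes had a promoter in the table, and 7 held at least 1 match: Ifit1, Ifit3, Ifit3b, Oas1a, Rsad2, Ifitm3 and Bst2. Among all 32851 promoters of that length, 3.44% held a match and 0.225% held 2 or more. By gene, 1079 of 27025 (3.99%) held a match. The 4 promoters shown are those with the most matches and the highest mean levels, with the matches in capitals. They are given because the motif is the one through which the interferon pathway is known to act, and a match describes the letters only. Ifit3 lies at chr19:34583279-34583578 on the plus strand, Ifit3b at chr19:34607707-34608006 on the plus strand, Ifitm3 at chr7:141010695-141010994 on the minus strand and Bst2 at chr8:71537423-71537722 on the minus strand.
Ifit3: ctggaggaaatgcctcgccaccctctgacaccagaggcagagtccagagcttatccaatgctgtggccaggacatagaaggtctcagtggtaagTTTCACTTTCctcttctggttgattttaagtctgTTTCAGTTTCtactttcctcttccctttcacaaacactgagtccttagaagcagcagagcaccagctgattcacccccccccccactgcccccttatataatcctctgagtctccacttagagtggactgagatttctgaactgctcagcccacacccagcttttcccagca
Ifit3b: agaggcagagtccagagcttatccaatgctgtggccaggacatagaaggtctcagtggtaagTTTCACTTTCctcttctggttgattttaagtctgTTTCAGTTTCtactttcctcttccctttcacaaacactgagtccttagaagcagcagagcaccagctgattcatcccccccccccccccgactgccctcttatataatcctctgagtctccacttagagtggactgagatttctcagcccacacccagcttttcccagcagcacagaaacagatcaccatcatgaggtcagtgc
Ifitm3: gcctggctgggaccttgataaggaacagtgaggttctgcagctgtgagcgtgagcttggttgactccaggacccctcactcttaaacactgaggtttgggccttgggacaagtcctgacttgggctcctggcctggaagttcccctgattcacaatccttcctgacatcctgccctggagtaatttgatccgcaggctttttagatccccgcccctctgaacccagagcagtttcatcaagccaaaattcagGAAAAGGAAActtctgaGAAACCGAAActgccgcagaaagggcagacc
Bst2: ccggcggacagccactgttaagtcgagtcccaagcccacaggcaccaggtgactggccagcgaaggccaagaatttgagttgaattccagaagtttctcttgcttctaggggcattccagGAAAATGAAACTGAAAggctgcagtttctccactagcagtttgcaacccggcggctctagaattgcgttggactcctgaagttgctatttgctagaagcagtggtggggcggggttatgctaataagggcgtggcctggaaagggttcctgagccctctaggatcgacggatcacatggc

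Ifit3 and its neighbour Ifit3b carried the same pair of matches, TTTCACTTTC and TTTCAGTTTC, in the same order, starting 156 and 122 bases before the start of Ifit3 and 188 and 154 bases before that of Ifit3b. Ifit1 had the same pair of decamers 104 and 85 bases before its start. In Bst2 and in Oas1a the matches overlapped into 1 stretch, at 130 and at 20 bases before the start. The matches of Ifitm3 began 2 and 19 bases after the start, within the first exon. Neither of the 2 promoters listed for Ifit2 nor that of Oasl2 held the motif in this window.

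**Figure D1:**
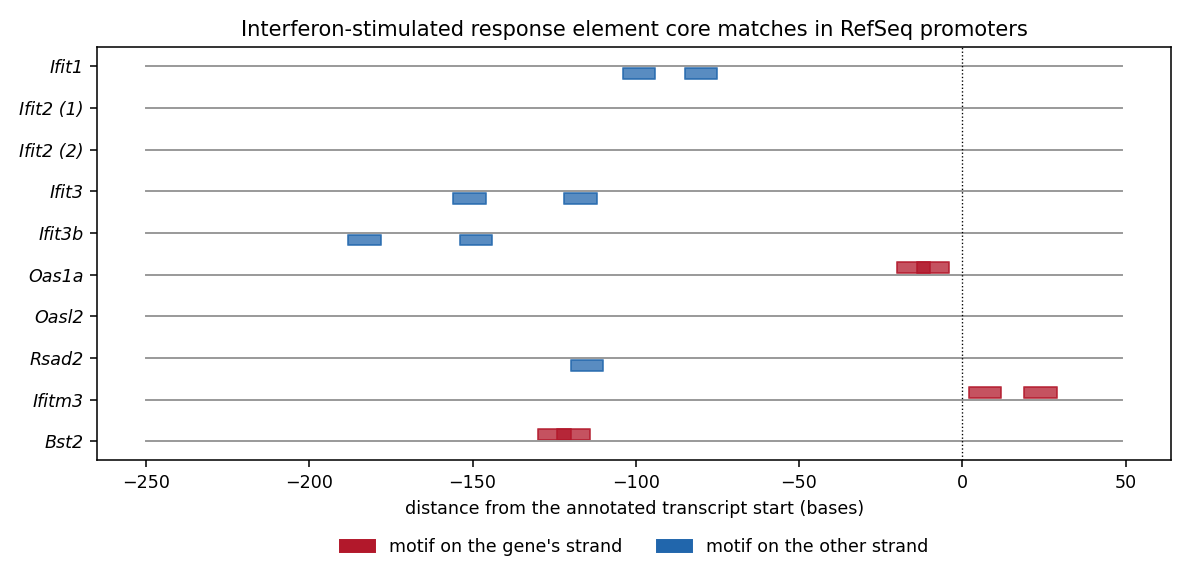
Positions of the interferon-stimulated response element core in the RefSeq promoters of the 9 effectors, as distance in bases from the annotated start at 0, with Ifit2 drawn for both of its promoters. Red boxes are matches on the strand of the gene and blue boxes matches on the other strand; 7 of the 9 genes hold a match and the Ifit2 and Oasl2 windows are empty.

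The Ifit genes lie in a row on the plus strand of chromosome 19 (GRCm38, GENCODE vM21 annotation): Ifit2 at 34550694 to 34576419, Ifit3 at 34583531 to 34588731, Ifit3b at 34607970 to 34613401 and Ifit1 at 34640871 to 34650009. None overlaps another annotated gene. Ifit1, which binds viral RNA lacking the full host cap, had 9921, 18724 and 12376 normalised counts in the knockout back libraries, 6512, 4406 and 12079.6 in knockout tail and 603, 4.14 and 53.4 in control tail. Every knockout library of either site was above every control library, while knockout back and knockout tail overlapped. The control libraries themselves ranged from 4.14 to 603. Ifit2, which binds AU-rich RNA, had 3439.5, 2811 and 5939 in knockout back, 721, 949.8 and 882 in knockout tail and 331, 203 and 699 in control tail. Its groups did not overlap, but the lowest knockout tail library, at 721, was close to the highest control, at 699, so that the step lay between back and tail rather than between tail and control.

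Ifit3 had 55051, 34285 and 27569.8 normalised counts in knockout back, 26611, 37655 and 54325 in knockout tail and 3522, 2612 and 2883 in control tail. All 6 knockout libraries lay within a range of 26611 to 55051, and the controls lay far below them. Ifit3b, a close copy of Ifit3, had 7671, 13276 and 10330.5 in knockout back, 8727, 12701 and 18223 in knockout tail and 1399, 918 and 1555 in control tail. The order of the groups matched that of Ifit3, with knockout back and knockout tail overlapping. Of the 50-base words of the Ifit3 transcript 51.2% also occur in Ifit3b, so the split of reads between the copies is uncertain. Summed over both genes, counts were 49394 ± 12512 in knockout back, 52747 ± 18720 in knockout tail and 4296 ± 707 in control tail (SD, n = 3 each), which gives the same picture without the split. In bulk samples such as these, fewer cells that make a transcript and less of it per cell cannot be told apart.

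**Figure D2:**
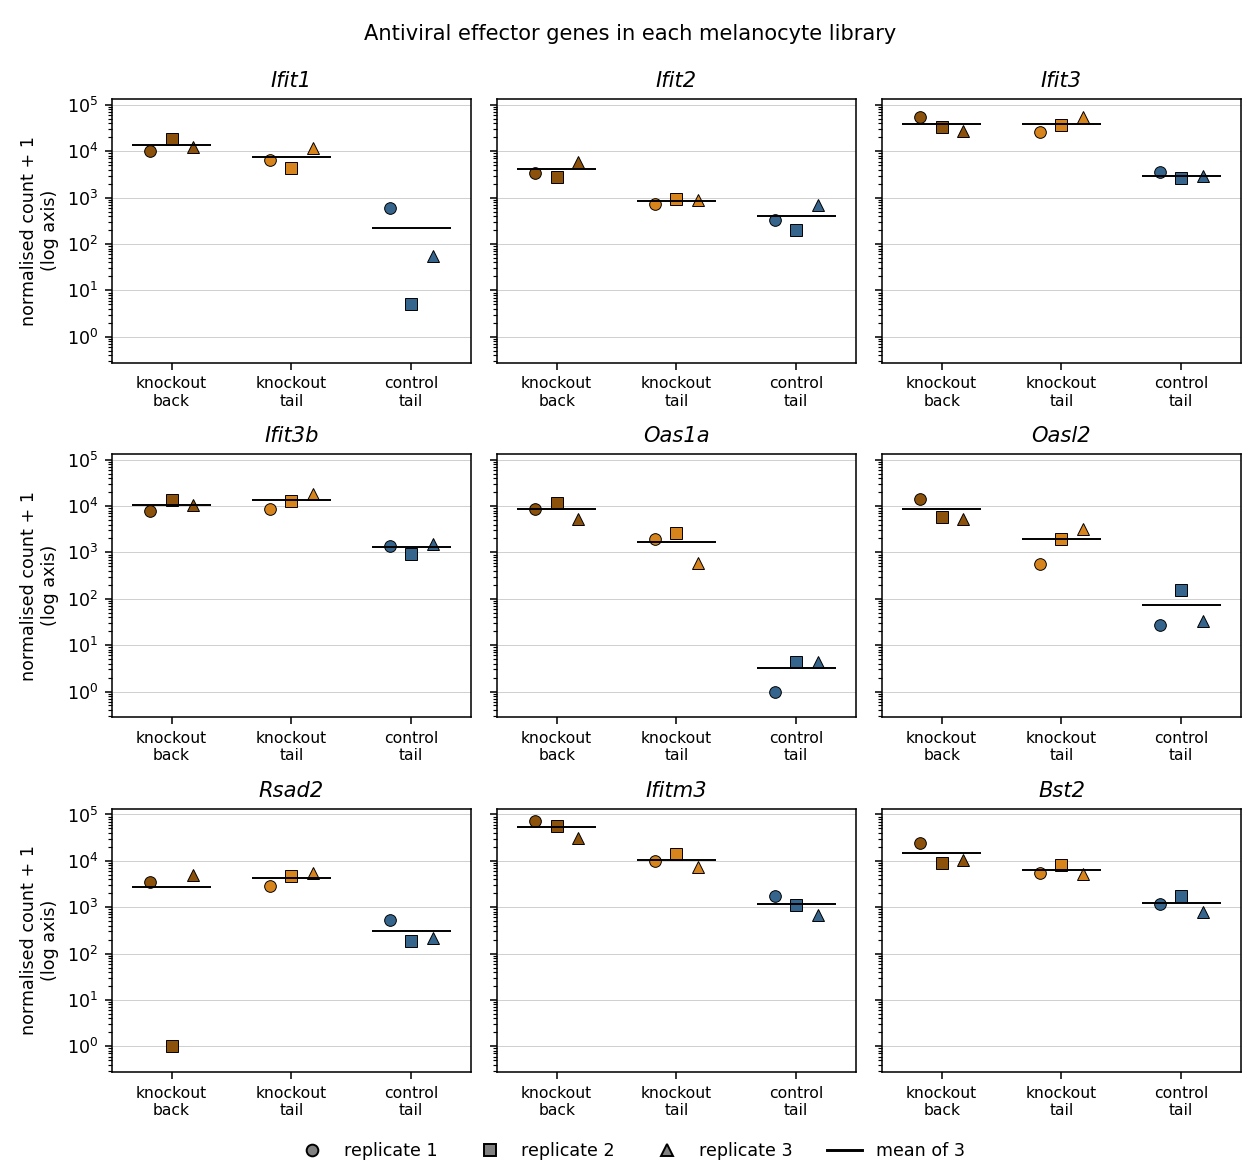
Normalised count + 1 on a log axis for each effector in each library, with groups on the horizontal axis, marker shapes for replicates and bars for the mean of 3. All knockout tail points lie above all control tail points in every panel, and Rsad2 is at 0 counts in the second knockout back library, against 3483 and 4846 in the others of that group.

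Oas1a, which makes oligoadenylates when it binds double-stranded RNA, lies on chromosome 5 at 120896256 to 120907521, minus strand. It had 8826, 11808 and 5219.6 normalised counts in knockout back, 1918, 2650.2 and 582 in knockout tail and 0, 3.31 and 3.24 in control tail. The 3 groups stood fully apart, and the controls rested on 8 counts in all. Oas1a shares 57.6% of its 50-base words with Oas1g, another Oas gene, and the sum of both was 11592 ± 5132 in knockout back, 2093 ± 1334 in knockout tail and 2.18 ± 1.89 in control tail (SD, n = 3 each). Oasl2, a related Oas-like gene on chromosome 5 at 114896936 to 114912234, plus strand, had 14125, 5906 and 5294 in knockout back, 554, 1948 and 3206 in knockout tail and 26.8, 154 and 32.4 in control tail. Its groups also stood apart, with a spread of 554 to 3206 among the knockout tail libraries.

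Rsad2, on chromosome 12 at 26442746 to 26456452, minus strand, had 3483, 0 and 4846 normalised counts in knockout back, 2819, 4796 and 5377 in knockout tail and 521, 189 and 215 in control tail. The library at 0 is the second knockout back library, which also had the most genes at 0 of all 9 libraries, 6127. The other 2 knockout back libraries lay within the knockout tail range, and all 3 knockout tail libraries were above the controls. Rsad2 was the 1 effector of the 9 for which knockout back and control overlapped, and that overlap came from the library at 0.

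Ifitm3, on chromosome 7 at 141009586 to 141010770, minus strand, had 74046, 57427 and 31765.5 normalised counts in knockout back, 9851, 14274 and 7420.2 in knockout tail and 1776, 1112 and 683 in control tail. The groups stood apart at each step, and the lowest knockout back library held more than the highest knockout tail library. Bst2, on chromosome 8 at 71534255 to 71537456, minus strand, had 24537, 9085 and 10669 in knockout back, 5419, 8009.8 and 5207 in knockout tail and 1167, 1737 and 795 in control tail. Its groups stood apart in the same order, but the second knockout back library, at 9085, was near the second knockout tail library, at 8009.8.

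In knockout tail against control tail, the comparison that led to the choice of these genes, the means of normalised counts were higher by 2.07-fold for Ifit2, 5.04-fold for Bst2, 8.83-fold for Ifitm3, 10.2-fold for Ifit3b, 13.2-fold for Ifit3, 14.1-fold for Rsad2, 26.8-fold for Oasl2 and 34.8-fold for Ifit1. The ratio for Oas1a was 786, against 8 control counts. These counts still hold the set shift, and no control library is in the smaller set. Within the larger set alone the ratios were lower for Ifit1 (24.8), Oasl2 (17.6), Rsad2 (12.4), Ifit3 (10.7), Ifit3b (8.30) and Ifit2 (2.03). They were higher there for Ifitm3 (10.1), Bst2 (5.45) and Oas1a (1047). On the deposited log2 scale the differences ran from 0.34 (SE 0.40) for Ifit2 to 3.18 (SE 0.76) for Ifit1 in the group-only fit, with a median of 2.41 over the 9 genes and of -0.05 over all genes. In the set-term fit they were larger for each of the 9, from 0.55 (SE 0.42) for Ifit2 to 3.78 (SE 0.57) for Ifit1. In normalised counts all 9 effectors had knockout tail libraries above all control libraries, as did 9.70% of all genes. On the deposited scale 8 of the 9 did, as did 6.44% of all genes, and Ifit2 overlapped there, with 10.72, 10.99 and 9.86 in knockout tail, against 10.08, 9.76 and 10.69 in control tail. Over all genes the group-only limma fit called 0%, with 814 genes at an unadjusted p under 0.05, and the set-term fit called 0.0614% in either direction and 0.0429% as higher. Limma with voom on the recovered counts called 0 genes. No calls are given for the effectors in this contrast, since it was used to pick them.

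Knockout back was compared with knockout tail to see whether the effectors differed between body sites within the Cre genotype. In normalised counts Ifit2, Oas1a, Oasl2, Ifitm3 and Bst2 were higher in every knockout back library than in every knockout tail library, 5 of 9 where 4.55% of all genes were. On the deposited scale Ifit2, Oas1a and Ifitm3 were, 3 of 9 where 7.53% of all genes were. There the lowest knockout back library lay below the highest knockout tail library for Oasl2, at 11.68 against 12.07, and for Bst2, at 13.07 against 13.43. Ifit1, Ifit3, Ifit3b and Rsad2 overlapped between the sites on both scales. The means of the 5 differed by 4.77-fold for Ifit2, 5.02-fold for Oas1a, 4.44-fold for Oasl2, 5.17-fold for Ifitm3 and 2.38-fold for Bst2. Ifit3 and Ifit3b had ratios of 0.986 and 0.789, and Ifit1 and Rsad2 of 1.78 and 0.641.

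In the group-only limma fit 0 of the 9 passed an adjusted p of 0.05 between the sites, among 244 genes called, which is 1.50% of all genes (0.411% as higher), and 3474 genes had an unadjusted p under 0.05. The lowest values among the effectors were those of Ifit2, with a difference of 1.75 (SE 0.40, adjusted p = 0.065), and Ifitm3, with 2.28 (SE 0.63, adjusted p = 0.095). The set-term limma fit gave the same differences with smaller errors and called Ifitm3 (SE 0.29, adjusted p = 0.033), 1 of 9 where 0.436% of all genes were called and 0.141% as higher. Oas1a fell just short there, at 2.14 (SE 0.35, adjusted p = 0.053). The Ifitm3 call passed in 3 of the 9 set-term fits that each left out 1 library, namely without the third knockout tail, the third knockout back or the second knockout back library, with adjusted p from 0.019 to 0.17 over the 9 fits. For Ifit3 the 95% interval of the difference in the set-term fit was -0.79 to 0.74, and for Ifit3b -1.01 to 0.40.

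Each library set holds both sites, so the difference between them can be read within each set. Between the third knockout back and the third knockout tail libraries, 1 library each with no replicate check, it was 2.26 for Ifit2, 2.48 for Oas1a, 0.65 for Oasl2, 2.03 for Ifitm3 and 0.97 for Bst2. Within the larger set, with 2 libraries for each site, it was 1.49, 1.97, 2.64, 2.41 and 1.13 for the same genes in that order. That all 5 lay above 0 in both sets follows from the lack of overlap in normalised counts by which they are grouped here. Of the 5, Oasl2 differed most between the sets. The difference of Ifit3 was -0.97 in the smaller set and 0.45 in the larger one. Rsad2 was at -0.14 in the smaller set and at -2.06 in the larger set, which holds the knockout back library at 0.

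Knockout back against control tail joins the differences of site and genotype, shares the control libraries with the first comparison and the knockout back libraries with the second, and so is not independent of the choice of genes. All the effectors except Rsad2, 8 of 9, were higher in every knockout back library than in every control library in normalised counts, where 7.41% of all genes were. The same 8 stood apart on the deposited scale, where 8.68% of all genes did. The ratio of means was 8.08 for Ifit3b, 9.01 for Rsad2, 9.89 for Ifit2, 12.0 for Bst2, 13.0 for Ifit3, 45.7 for Ifitm3, 62.1 for Ifit1 and 119 for Oasl2. For Oas1a it was 3948, against 8 control counts. Within the larger set alone the ratio was lower for Ifit2 (7.61) and Rsad2 (5.65). It was higher there for the other effectors, such as Ifit1 (65.0) and Oasl2 (141).

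In the group-only limma fit 4 of the 9 passed, all higher in knockout back, where 1.0% of all genes were called in either direction and 0.387% as higher. These were Oas1a with a difference of 4.77 (SE 0.66, adjusted p = 0.036), Ifitm3 with 4.71 (SE 0.63, adjusted p = 0.036), Bst2 with 2.82 (SE 0.52, adjusted p = 0.049) and Oasl2 with 3.77 (SE 0.70, adjusted p = 0.04997). Single libraries decided these calls. Oas1a and Ifitm3 passed in 2 of the 9 fits that each left out 1 library, those without the third knockout back or the third knockout tail library, and Bst2 and Oasl2 passed only without the third knockout back library. The differences themselves stayed between 4.40 and 5.30 for Oas1a and between 4.29 and 5.37 for Ifitm3 over the 9 fits.

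The set-term limma fit called 8 of the 9 between knockout back and control tail, where 3.34% of all genes were called and 1.05% as higher. Oas1a had a difference of 5.39 (SE 0.37, adjusted p = 0.0014) and Ifitm3 of 5.31 (SE 0.31, adjusted p = 0.0010), and both passed in all 9 set-term fits that left out 1 library. Ifit3 followed with 3.43 (SE 0.35, adjusted p = 0.0086) and passed in 8 of the 9 fits, missing the threshold without the second control library (adjusted p = 0.060). Ifit1, at 4.64 (SE 0.57, adjusted p = 0.014), missed it without the second or the third control library (0.069 at most). Ifit3b and Bst2 missed it without any 1 of the 3 control libraries (0.077 and 0.075 at most), while Oasl2 passed in 4 of the 9 fits and Ifit2 in 3, with adjusted p up to 0.089 and 0.12. Rsad2 had a difference of 0.83 (SE 1.01, adjusted p = 0.65), and without the second knockout back library 2.48 (adjusted p = 0.032). Without both the first and the second knockout back libraries, the knockout back group is 1 library, assumed to vary like the others, and Oas1a alone passed in the set-term fit, with 5.81 (adjusted p = 0.044).

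**Figure D3:**
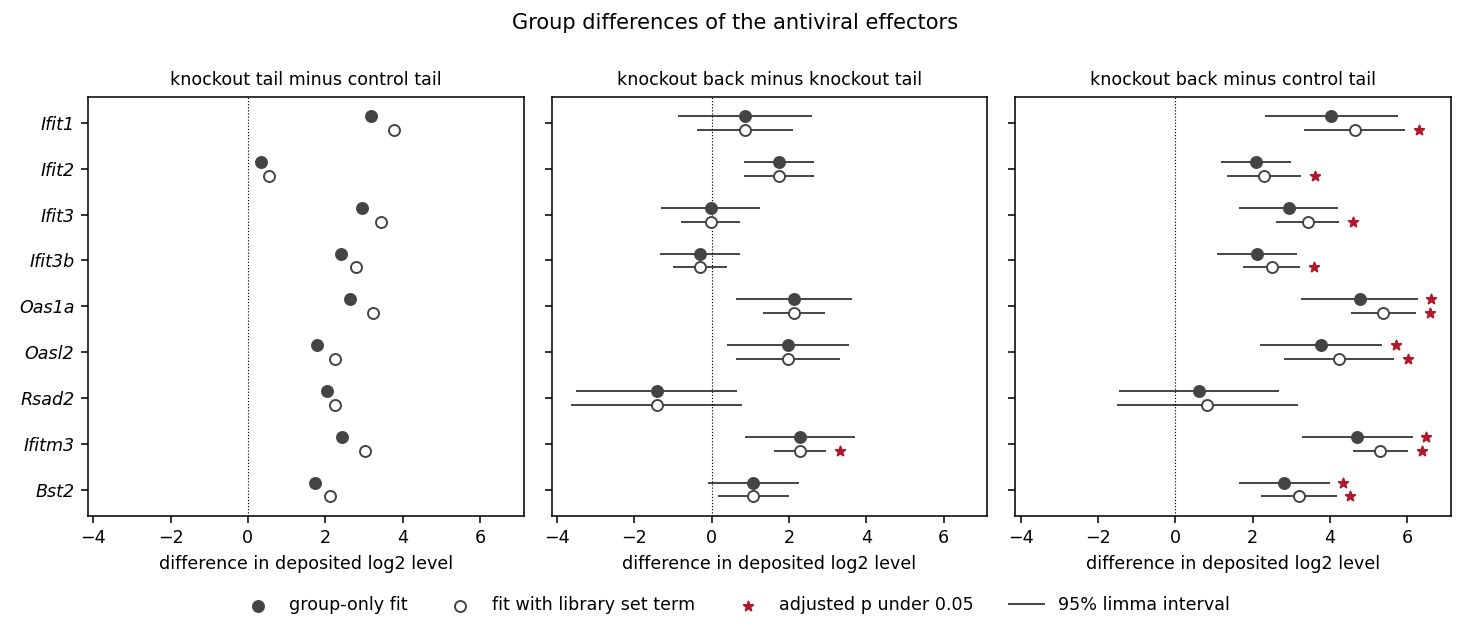
Difference in deposited log2 level of each effector in the 3 comparisons, from the group-only fit (filled) and the set-term fit (open), with 95% limma intervals as lines and stars for adjusted p under 0.05. The left panel shows values only, since that contrast led to the choice of genes; in the right panel all estimates lie above 0 and only those of Rsad2 have intervals that reach it.

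Per length, the abundance of the effectors differed by orders of magnitude within a group. Counts per kilobase of exon in knockout back were 80255 ± 31417 for Ifitm3, above 22332 ± 8210 for Ifit3 and 16349 ± 9414 for Bst2, which overlapped each other (SD, n = 3 each). Next came Ifit3b, Ifit1 and Oas1a at 5213, 5148 and 4572 per kilobase, which overlapped, and then Oasl2, Ifit2 and Rsad2 at 1324, 1035 and 640. In knockout tail Ifit3, at 22653 ± 7995, and Ifitm3, at 15509 ± 5125, overlapped at the top, followed by Bst2 and Ifit3b at 6879 and 6608 per kilobase. Ifit1 stood at 2886, Rsad2 and Oas1a at 999 and 911, and Oasl2 and Ifit2 were lowest at 298 and 217. In control tail Ifitm3, Ifit3 and Bst2 were at 1756, 1722 and 1365 per kilobase and overlapped, Ifit3b was at 645, and Ifit2, Ifit1 and Rsad2 overlapped at 105, 82.9 and 71.1. Oasl2, at 11.1 ± 11.3, and Oas1a, at 1.16 ± 1.0, came last. Oas1a was thus the lowest of the 9 in control tail and the sixth in knockout back, while Ifitm3, Ifit3 and Bst2 had the 3 highest means in each group, with Bst2 and Ifit3b overlapping in knockout tail.

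**Figure D4:**
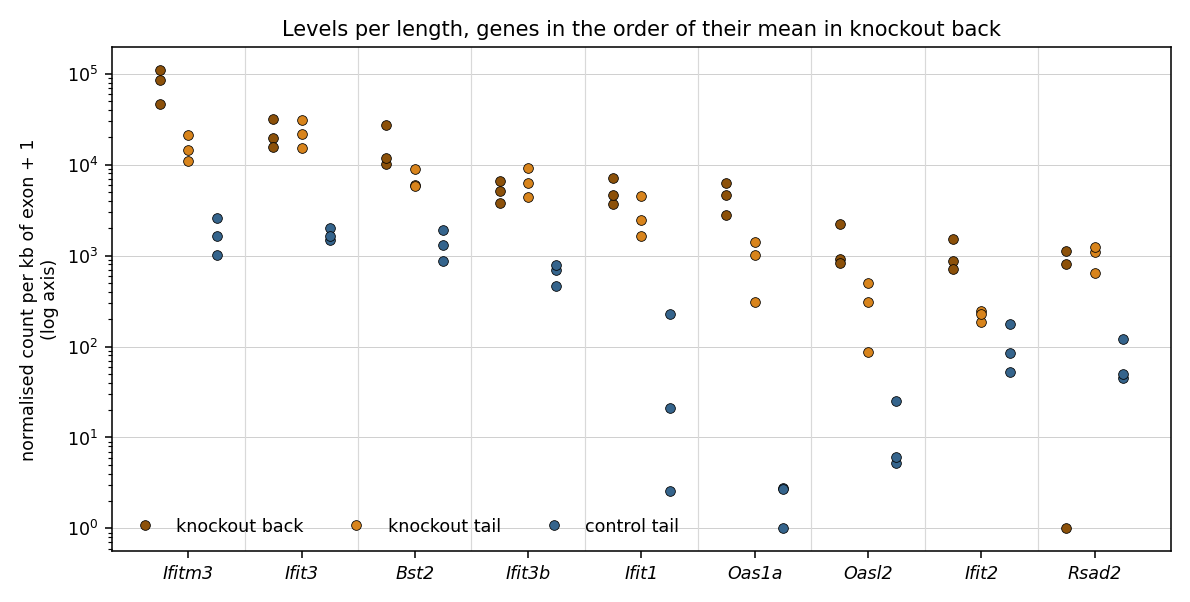
Normalised count per kilobase of exon + 1 on a log axis, with a point per library and genes ordered by their mean in knockout back. Ifitm3, Ifit3 and Bst2 have the highest means in all 3 groups, and Oas1a has the widest gap between knockout and control libraries.

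Other genes of the interferon pathway were described from lists of family members, antiviral genes and signalling genes. Of 18 other Ifit, Oas and Ifitm genes 7 were measured, and the rest were not analysed here. The median difference of the 7 was 0.46 in knockout tail against control tail, -0.14 in knockout back against knockout tail and 0.24 in knockout back against control tail. Over all genes the medians in the same order were -0.05, -0.18 and -0.23. Oas1g was the highest of the 7 in each comparison, at 1.48, 2.09 and 3.57, and the last passed in the group-only limma fit (SE 0.53, adjusted p = 0.039). Its normalised counts were 2345, 5113 and 1463 in knockout back, 383, 660.2 and 85.6 in knockout tail and 0 in all 3 control libraries. Ifitm10 was the lowest in each comparison, at -1.65, -0.77 and -2.42, and in knockout back against control tail it passed in the set-term fit, at -2.76 (adjusted p = 0.030). Ifitm2, from the same family as Ifitm3, had means of 16241 ± 3699 in knockout back, 15012 ± 3352 in knockout tail and 14768 ± 6694 in control tail (SD, n = 3 each), so it differed by less than its spread where Ifitm3 did not overlap.

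Of 35 other antiviral genes 31 were measured. Against control tail 28 of the 31 were higher in knockout tail and the median was 0.67, with Rtp4, an interferon-induced transporter protein, highest at 2.73. The group-only limma fit called 0 of them, as it did of all genes, and the set-term fit called Usp18, a protease that removes Isg15 from proteins, at 3.12 (adjusted p = 0.043). Between knockout back and knockout tail 17 were higher, with a median of 0.35 and Adar, an RNA-editing enzyme, lowest at -1.13. The ADP-ribosyltransferase Parp14, at 3.11 (adjusted p = 0.039), and the surface protein Ly6e, at 2.95 (adjusted p = 0.0499), passed there in the group-only limma fit, and neither passed in the set-term fit. Parp14 had 2551, 4730.4 and 1311 normalised counts in knockout back, 3.23, 0 and 215 in knockout tail and 3.15, 0 and 4.86 in control tail. In normalised counts it overlapped between knockout tail and control tail, where the 9 effectors, picked above all on that contrast, did not.

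Between knockout back and control tail 26 of the 31 antiviral genes were higher, with a median of 1.20, and Samhd1, an enzyme that breaks down nucleotides for DNA synthesis, was lowest at -0.95. Usp18 at 3.73 (adjusted p = 0.039), Parp14 at 3.19 (adjusted p = 0.046) and the apoptosis factor Xaf1 at 1.90 (adjusted p = 0.046) passed in the group-only limma fit. In the set-term fit 9 passed, all higher: Isg15, Usp18, Trim30a, Ifi35, Rtp4, Xaf1, Parp9, Parp14 and Ly6e, from 1.35 for Ifi35 to 4.25 for Usp18. None of the interferon genes listed beforehand was among the genes with deposited values, so their levels could not be analysed here.

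All 22 listed receptor and signalling genes were measured. Their median differences were 0.15 in knockout tail against control tail, 0.23 in knockout back against knockout tail and 0.45 in knockout back against control tail, with 13, 14 and 14 genes above 0. Stat2, a part of the complex that binds the response elements, was the highest between the sites, at 1.39, and passed between knockout back and control tail in the group-only limma fit, at 2.43 (adjusted p = 0.045). The set-term fit also called Irf7 at 3.09 and Irf9 at 1.76 in that comparison, with adjusted p of 0.033 and 0.030. The lowest were Irf5, a transcription factor, at -0.79 and -1.12 against control tail in knockout tail and knockout back, and the kinase Jak2, at -0.88 between the sites.

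**Figure D5:**
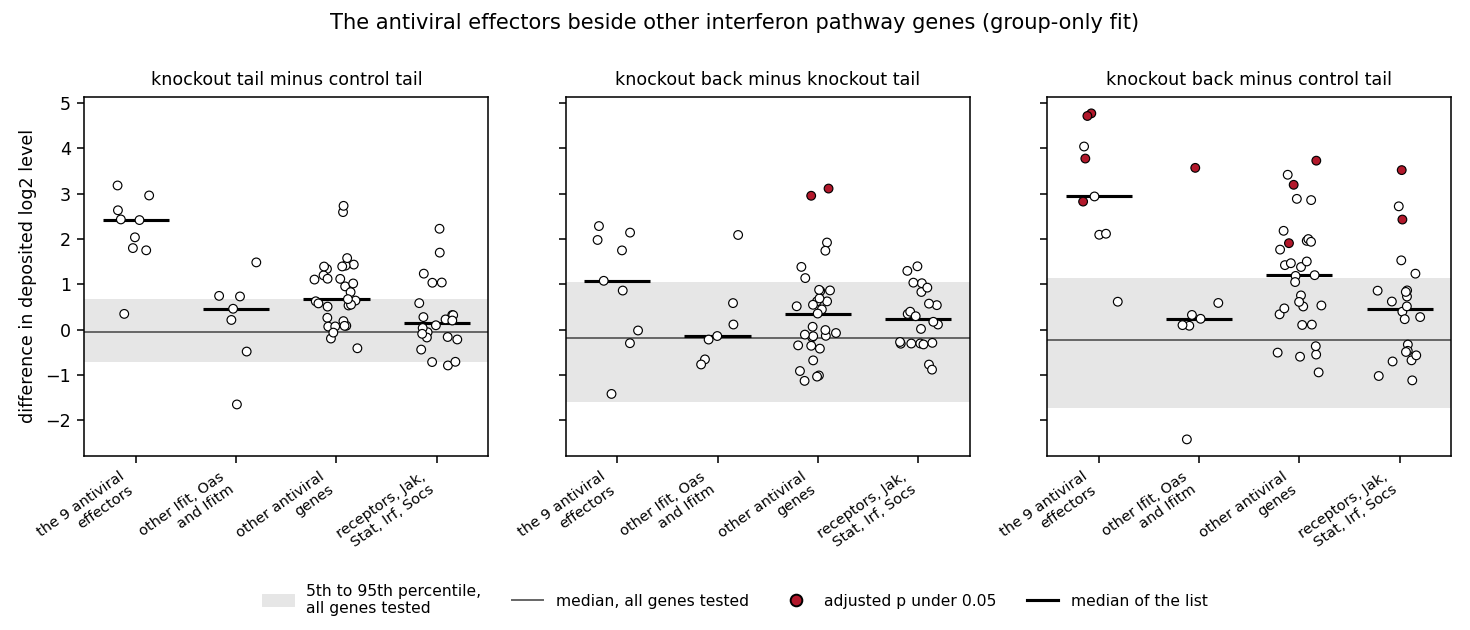
Differences in deposited log2 level in the group-only fit for the 9 effectors and 3 other lists of interferon pathway genes, 1 point per gene, with black bars for list medians, the grey line for the median of all genes and the grey band for their 5th to 95th percentile. The effectors have list medians of 2.41, 1.07 and 2.94 from left to right. They were picked on the values of these libraries, above all those behind the left panel, so their height beside the other lists is a description. Points in red have adjusted p under 0.05.

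The genes whose pattern over the 9 libraries was most like that of the effectors were found by Pearson's r with the mean standardised deposited level of the 9, among the 8150 genes with a mean level at or above the median. Of the 10 highest, 9 are given here: Usp18 (r = 0.989), Xaf1 (0.989), the complement gene C4b (0.986), Ifi27 (0.986), the selenium carrier Selenop (0.973), Rtp4 (0.973), Tapbp (0.969), which loads peptides onto class I molecules, the GTPase gene Gbp7 (0.966) and the cholesterol exporter Abca1 (0.965). These r describe 9 libraries that fall into groups, so a gene that differs between the groups in the same order scores high. Of these 9, C4b had the largest differences, at 2.80, 2.01 and 4.81 in the 3 comparisons in the order above.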

How the data were processed

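The deposited table holds 1 log2 value per gene and library for 16299 genes and 9 libraries, made by the authors on a variance-stabilised scale. Per the submitters' processing notes, DESeq2 and GRCm38 were used, with no version or role stated. Per the labels' protocols, the libraries came from Trizol RNA through a SMART-Seq v4 kit and were read paired-end. The sources used here do not give the aligner, the counting program or the strand setting.

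A gene at 0 counts has a deposited value of 7.98 before the removed shift. In every gene the means of the smaller set of 2 libraries and of the other 7 were equal to within 7.14e-09, where the next best of 255 splits differed by up to 1.50, so a shift between these sets had been taken out. Its median absolute size was 0.449, and it was over 1 in 18.2% of genes. Undoing curve and shift gave counts within 0.004 of a whole number for 16296 genes.

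All genes and libraries entered 1 limma fit (limma 3.58.1 in R 4.3.3) of the deposited values, using a mean-variance trend and robust moderation, with Benjamini-Hochberg adjustment over all genes and a threshold of 0.05. Tests and the recovery were tested on simulated data. Alternatives were the library set as a term, the shift put back, the larger set alone, voom on recovered counts, array weights, quantile normalisation, no moderation by trend, a filter on low genes, the replicate number as a block, and libraries left out. The values were logs already, so no pseudocount was used. Correlations of deviations between same-numbered libraries ran from -0.70 to 0.076. The value of -0.70 belongs to replicate 3 of knockout back and knockout tail. These libraries form the smaller set, whose mean the removed shift had fixed in every gene. Differently numbered libraries were not compared in this way, so whether the replicate numbers pair the libraries was not decided. The members and all lists were chosen with earlier results of these data known. All 9 members are named. From the other lists, genes past the threshold in the group-only or set-term fit and the highest and lowest in each comparison are named, and the genes alike in pattern are the 10 with the highest r. Some single genes that these rules select are not reported here. Promoters come from a RefSeq table and positions, counted from 1, from GENCODE vM21. Tables and figures were made with Python 3.11.15.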

Additional observations from a re-analysis of the deposited data

How the results depend on the processing

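Counts below are of all genes, then of the 9 effectors, past an adjusted p of 0.05 in limma. For knockout tail against control tail only the counts of all genes are given, since this contrast picked the effectors. The group-only fit gave 0, the set term 10 and the shift put back 6. The others gave 0, apart from fits without 1 library, given below. For knockout back against knockout tail (244 and 0) the counts were 1325 and 2 with array weights, 1637 and 3 in the larger set alone, 90 and 0 without low genes, 71 and 1 with the set term, 31 and 0 with the shift put back, 21 and 0 with the replicate block, 168 and 1 with voom, and 202 and 2 with voom and the set term. Without the 2 sparse knockout back libraries they were 0 and 0, and with the set term also 1 and 0. The 2 under array weights were Ifit2, higher, and Ifit3b, lower.

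For knockout back against control tail (163 and 4) the counts were 471 and 7 without trend and robust moderation, 903 and 8 with array weights, 579 and 8 after quantile normalisation, 284 and 8 without low genes, 545 and 8 with the set term, 217 and 8 with the shift put back, 2371 and 8 in the larger set alone, 317 and 2 with voom, 428 and 2 with voom and the set term, and 42 and 2 with the replicate block. Without the sparse libraries they were 0 and 0, and with the set term also 8 and 1.

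With 1 library left out, knockout tail against control tail gave 0 genes throughout in the group-only fit. With the set term it gave 0 to 8 genes, with calls only without the first or the second knockout back library. Knockout back against knockout tail gave 3 to 1972 genes and 0 to 4 effectors, and 2 to 1642 and 0 to 3 with the set term. Knockout back against control tail gave 0 to 2804 genes and 0 to 8 effectors, and 26 to 2385 and 2 to 9 with the set term. The fits with the set term and a library left out were added after seeing the data. Over all fits with 1 library left out, the difference between knockout back and knockout tail ran from -0.55 to 0.71 for Ifit3 and from -0.74 to 0.20 for Ifit3b, and that of Rsad2 between knockout back and control tail from -0.36 to 2.48.

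Between knockout back and knockout tail, Ifit1 (0.86) turned to -0.59 with array weights and -0.76 without the sparse libraries. Ifit3 (-0.02) turned to 0.45 in the larger set alone and in the set-term fits without the third knockout tail or the third knockout back library, 0.018 with voom, 0.0085 with voom and the set term, 0.23 without the second knockout tail library, 0.71 without the third knockout back library, and 0.037 in the set-term fit without the second knockout back library. Ifit3b (-0.30) turned to 0.20 without the third knockout back library. Between knockout back and control tail, Rsad2 (0.61) turned to -0.30 with voom and, without the first knockout back library, to -0.33, or -0.36 with the set term. No other difference of an effector changed its sign in any alternative. The causes were not tested.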

Other observations

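The ratio of Ifit3 to Ifit3b normalised counts was 7.18 in the first knockout back library and 1.85 to 3.05 in the other 8, so the copies were split differently in that library. The values were singled out after they were seen. Among the 8 effectors with counts in every control library, Ifit1 had the widest relative range within control tail, from 4.14 to 603 normalised counts. H2-Aa, a class II gene on the Langerhans and myeloid list, had 2954, 3159 and 3693 in knockout back, 0, 0 and 1281 in knockout tail and 0, 4.96 and 0 in control tail, and Ly6e had 9307, 6906 and 7233 in knockout back, 208, 130.0 and 3429 in knockout tail and 239, 296 and 323 in control tail. In both genes the third knockout tail library stood nearer to knockout back than the other 2 knockout tail libraries did.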
